A study of Arabidopsis thaliana with 6 samples.

Results

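The clock genes of the PSEUDO-RESPONSE REGULATOR (PRR) family are TOC1 (AT5G61380), PRR3 (AT5G60100), PRR5 (AT5G24470), PRR7 (AT5G02810) and PRR9 (AT2G46790). They were taken by locus identifier and make up 5 of the 33602 genes in each expression file. The study compared 3 libraries of a toc1-21 prr5-1 double mutant with 3 libraries of Col-0, the wild type, all made from whole Arabidopsis thaliana seedlings. Both groups were 10 days old and had been raised on MS medium containing 3% sucrose under LD conditions (long days) at 22 °C, with harvest at ZT15, where ZT counts hours from lights on. The mutant carries lesions in TOC1 and PRR5, which are themselves members. The type of each lesion, the accession in which each allele arose and the source of each biological replicate are not stated in the labels. The limma p-values rest on the spread among the 3 libraries within each genotype, pooled over both genotypes and moderated over all tested genes.

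PRR proteins carry a pseudo-receiver domain, which resembles the receiver of bacterial response regulators but lacks its phosphate-accepting aspartate, and a C-terminal CCT motif that contacts DNA. They act as transcriptional repressors of the morning clock genes CCA1 and LHY, and their own transcripts peak in sequence through the day, PRR9 first after dawn, then PRR7 and PRR5, and TOC1 and PRR3 towards dusk. CCA1 and LHY in turn bind the evening element, a short promoter motif, and repress evening genes such as TOC1.

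Short stretches of DNA ahead of the genes are shown because they carry the evening element, bound by CCA1, LHY and RVE8, or the G-box, a site bound by bHLH and bZIP factors, and so tell the members apart by a feature other than their levels. The 300 bases before the annotated start of each gene were read from TAIR10.1 and searched on both strands for the evening element AAAATATCT and the palindromic G-box CACGTG, which do not overlap each other. Matches are in capitals within 29 or 30 bases, written 5′ to 3′ on the strand named.
TOC1 evening element, chr5:24674802-24674830, minus strand: catcttggagAAAATATCTcatgatattt
PRR5 evening element, chr5:8358715-8358743, plus strand: tggagaaaagAAAATATCTagaaaaaatc
PRR5 evening element, chr5:8358820-8358848, plus strand: tggatttgaaAAAATATCTagtagaattg
PRR7 G-box, chr5:642214-642243, minus strand: tacccaccattaCACGTGtcagttcaaaaa
PRR9 G-box, chr2:19232351-19232380, plus strand: acaatagaaaccCACGTGtcatccacatga
PRR9 G-box, chr2:19232423-19232452, plus strand: ttaggttaatgaCACGTGttaaggtggacc
The evening element was found ahead of 2 of the 5 members, TOC1 and PRR5, and ahead of 2.79% of 27443 protein-coding genes. The G-box was found ahead of PRR7 and PRR9, and ahead of 7.09% of protein-coding genes. Neither string occurred in the window of PRR3. The annotated exons of PRR5 span 1677 bases, whereas its RPKM rests on a gene length of 2257 bases, so the window ahead of PRR5 may include transcribed sequence.

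Levels are in RPKM, reads scaled to gene length in kilobases and to the size of the library, which allows genes of different length to be compared. The libraries rest on 14617043 to 26792712 reads, so that 1 RPKM in a gene of 1 kb equals 14.6 to 26.8 reads. Leaf markers (5 of 5 tested) summed to 16537 to 18307 RPKM in the mutant and 16552 to 18088 RPKM in Col-0. Of these RCA was higher, at 2912 ± 269.6 RPKM in the mutant and 2033 ± 94.2 RPKM in Col-0, and RBCS2B was lower, at 2047 ± 177.5 RPKM in the mutant and 3042 ± 354.4 RPKM in Col-0 (SD, n = 3 each, limma adjusted p = 0.0295 and 0.0272). Root markers (5 of 6 tested) summed to 72.4 to 78.6 RPKM in the mutant and 47.7 to 80.1 RPKM in Col-0, and flower markers to at most 1.45 RPKM in the mutant and 1.00 RPKM in Col-0. Each of the 4 seed markers was called lower in the mutant (limma adjusted p of at most 0.00688), against 6.65% of all tested genes. Their sums were 275.9 to 333.4 RPKM in the mutant and 512.3 to 641.1 RPKM in Col-0. The part of the seed transcripts in the results was not tested. In whole seedlings, fewer cells that express a gene and less RNA per cell cannot be told apart.

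At ZT15 the PRR genes differed between the genotypes in both directions. TOC1 and PRR5 were lower, PRR3 and PRR7 were higher, and PRR9 was near its detection limit in both genotypes. Of the 5 genes, 4 were tested and 4 differed by limma at an adjusted p under 0.05. Over all 19710 tested genes 10.6% were called, 3.90% higher and 6.65% lower. Limma-voom on reads recovered from the RPKM values called the same 4 members in the same directions, against 11.3% of all genes, 4.55% higher and 6.77% lower. The limma total of 2080 called genes stood at 1340 without mutant replicate 1, 1361 without mutant replicate 2 and 1361 without Col-0 replicate 1, and the 4 PRR calls held in each of these fits. The mutant and Col-0 values did not overlap for the 4 tested members, nor for 27.0% of all tested genes. PRR7 reached the filter of 1 RPKM in 3 libraries only through the mutant, where it was high, so the count of 4 is no support of its own.

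**Figure D1:**
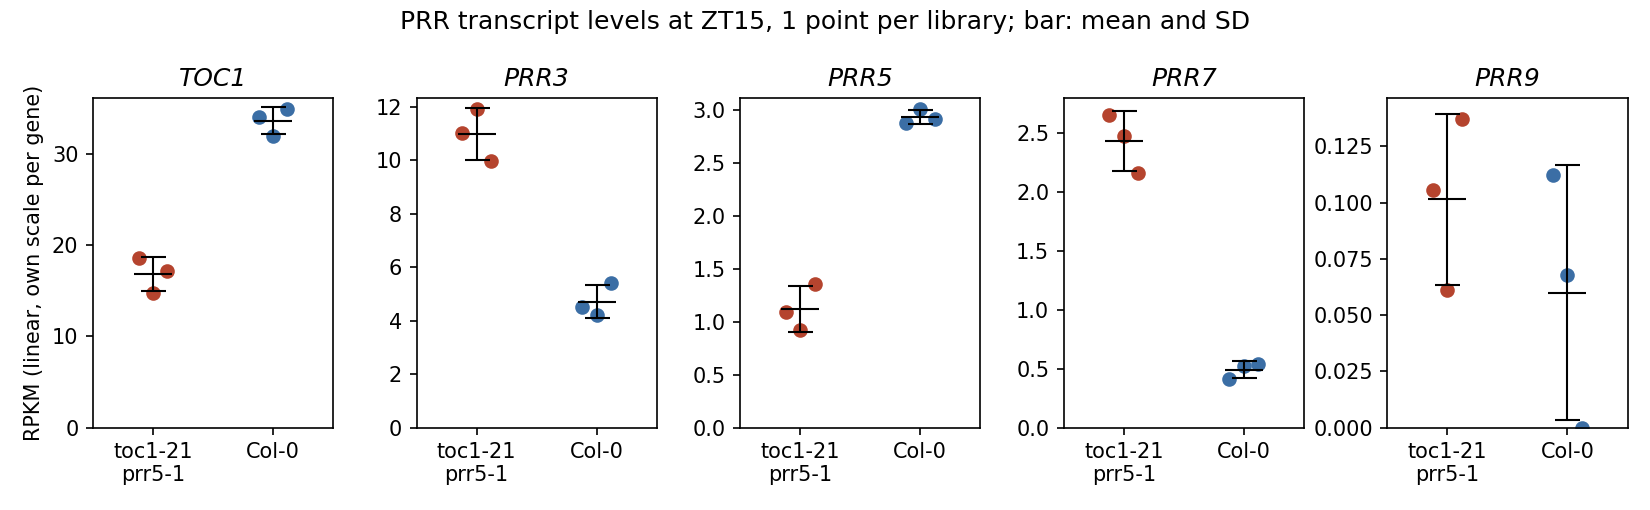
RPKM of the 5 PRR genes in each library (points, 3 per genotype, toc1-21 prr5-1 left and Col-0 right), with the mean and SD as bars and a linear axis of its own for each gene. Mutant points lie below Col-0 points for TOC1 and PRR5 and above them for PRR3 and PRR7, and they overlap for PRR9.

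TOC1, the founding member, which binds the CCA1 promoter and is needed for normal period length, lies on chromosome 5 at 24674963 to 24678550 (plus strand, TAIR10.1). It stood at 18.6, 14.8 and 17.2 RPKM in the mutant libraries, against 34.0, 32.0 and 34.9 RPKM in the Col-0 libraries. These values rest on 928 to 1073 reads in the mutant and 1346 to 2095 reads in Col-0. Each mutant library was thus below each Col-0 library, and the mutant mean of 16.8 ± 1.91 RPKM was 50.1% of the Col-0 mean of 33.6 ± 1.49 RPKM (SD, n = 3 each). The log2 fold change on RPKM + 1 was -0.96 (95% interval -1.19 to -0.74, limma adjusted p = 0.000187). A larger change in either direction was measured for 3.19% of tested genes. Even in the mutant, TOC1 was the most abundant of the 5 transcripts. A value per gene does not tell which part of the transcript the reads came from.

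PRR5, a repressor that acts from midday into the evening, lies on chromosome 5 at 8356204 to 8358546 on the minus strand. It stood at 1.09, 0.926 and 1.35 RPKM in the mutant, against 2.88, 3.01 and 2.92 RPKM in Col-0. The mutant libraries held 51, 56 and 61 PRR5 reads and the Col-0 libraries 95, 110 and 146. Col-0 values were close together and the mutant values more spread, without overlap between them. The mutant mean of 1.12 ± 0.216 RPKM was 38.3% of the Col-0 mean of 2.94 ± 0.0664 RPKM (SD, n = 3 each). The log2 fold change was -0.89 (95% interval -1.23 to -0.56, limma adjusted p = 0.00371) on RPKM + 1, a scale that understates changes of low genes, and -1.41 with limma-voom on recovered reads.

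PRR5 and TOC1 were both lower, and their ratio was compared. The PRR5 to TOC1 ratio was 0.0587, 0.0626 and 0.0788 in the mutant, against 0.0847, 0.0940 and 0.0836 in Col-0. All 3 mutant ratios were below the Col-0 ratios, by -0.40 on the log2 scale (exact two-sided permutation test, p = 0.1, the smallest that 20 splits allow). With 1 RPKM added to both genes the difference was 0.07 (exact permutation p = 0.6). That amount is close to the mutant PRR5 mean of 1.12 RPKM and small beside the TOC1 mean of 16.8 RPKM. It therefore shrinks the PRR5 change more than the TOC1 change. Leaving out each library in turn gave -0.53 to -0.31. With 3 libraries per genotype, the data do not settle whether PRR5 fell by a larger factor than TOC1.

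PRR3, which in the evening binds TOC1 and shields it from the F-box protein ZTL, rose in the mutant. It lies on chromosome 5 at 24197971 to 24201415 (minus strand). It stood at 11.02, 11.9 and 9.97 RPKM in the mutant, against 4.50, 4.22 and 5.42 RPKM in Col-0. The lowest mutant library was well above the highest Col-0 library. The mean was 10.97 ± 0.972 RPKM in the mutant and 4.71 ± 0.627 RPKM in Col-0 (SD, n = 3 each), a ratio of 2.33, with a log2 fold change on RPKM + 1 of 1.07 (95% interval 0.79 to 1.35, limma adjusted p = 0.000369). Reads numbered 442 to 709 in the mutant and 146 to 267 in Col-0.

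With TOC1 lower and PRR3 higher, the levels of these partners approached each other. There were 1.24 to 1.72 TOC1 per PRR3 (ratio of RPKM) in the mutant libraries, against 6.44 to 7.58 in the Col-0 libraries. The PRR3 to TOC1 ratio was 4.68-fold higher in the mutant, a log2 difference of 2.23 (exact two-sided permutation test, p = 0.1, 0.1 also after adjustment over the 3 ratios compared). It was between 2.03 and 2.31 in the alternatives tried.

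PRR7, which represses CCA1 and LHY during the day and whose transcription the factor bZIP63 promotes when sugar is low, showed the largest fold among the 4 tested members by the ratio of means. It lies on chromosome 5 at 637681 to 642030 (minus strand). It stood at 2.66, 2.48 and 2.16 RPKM in the mutant, against 0.411, 0.523 and 0.542 RPKM in Col-0. The mutant libraries held 156, 188 and 122 PRR7 reads and the Col-0 libraries 17, 24 and 34, so counting error alone is 17.1% to 24.3% of a Col-0 value. The groups did not overlap, and even the highest bound that counting error gives in Col-0 (0.779 RPKM, exact 95% Poisson interval) was below the lowest bound in the mutant (1.79 RPKM). The mean was 2.43 ± 0.252 RPKM in the mutant and 0.492 ± 0.0708 RPKM in Col-0 (SD, n = 3 each), a ratio of 4.94. On RPKM + 1 the log2 fold change was 1.20 (95% interval 0.85 to 1.55, limma adjusted p = 0.000851), and a larger change was measured for 1.95% of tested genes. With limma-voom on recovered reads it was 2.29 and with a pseudocount of 5 it was 0.44, each with the call kept. Tested with no filter on low values, PRR7 had limma adjusted p = 0.00065.

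PRR5 and PRR7 exchanged places. PRR7 exceeded PRR5 by 1.59 to 2.68 times in the mutant libraries, whereas PRR5 exceeded PRR7 by 5.39 to 7.01 times in the Col-0 libraries. The PRR7 to TOC1 ratio was 0.126 to 0.168 in the mutant, against 0.0121 to 0.0164 in Col-0, which is 9.94-fold higher (log2 difference 3.31, exact two-sided permutation test, p = 0.1). Adding 1 RPKM to both genes lowered that log2 difference to 2.16.

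PRR9, the earliest of the series to peak and a repressor of the morning loop, lies on chromosome 2 at 19232607 to 19235179 (plus strand) and was not tested, as no library reached 1 RPKM. It stood at 0.106, 0.0613 and 0.137 RPKM in the mutant, against 0.112, 0.0676 and 0 RPKM in Col-0. The mutant libraries held 4, 3 and 5 reads and the Col-0 libraries 3, 2 and 0, where 0 reads allow a level of up to 0.0741 RPKM taken as 3 reads, or 0.0911 RPKM by the exact two-sided 95% Poisson interval. Summed over libraries, 12 reads gave 0.0974 RPKM in the mutant (95% Poisson interval 0.0503 to 0.170) and 5 reads gave 0.0517 RPKM in Col-0 (0.0168 to 0.121). The intervals overlap and cover counting error only. A difference was not detectable at this depth (exact two-sided permutation test of the means, p = 0.5).

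The files describe a second locus, AT2G46670, with the same name as PRR9. It lies on chromosome 2 at 19164357 to 19165233 and matched the PRR9 gene at 870 of 874 aligned positions (99.5%). It was chosen after its values were seen. AT2G46670 stood at 0.199, 0.770 and 1.03 RPKM in the mutant, against 0.565, 0 and 0.124 RPKM in Col-0, with 33 and 8 summed reads. The values of the groups overlap. The labels do not say how reads that match both loci were counted, so the PRR9 level is uncertain.

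Summed over the 5 genes, PRR transcripts came to 33.4, 30.2 and 30.8 RPKM in the mutant, against 41.9, 39.8 and 43.8 RPKM in Col-0. The mean sum was 31.5 ± 1.73 RPKM in the mutant and 41.8 ± 1.98 RPKM in Col-0 (SD, n = 3 each). Without TOC1 the order was the other way, with 13.6 to 15.4 RPKM in the mutant against 7.82 to 8.88 RPKM in Col-0. TOC1 made up 53.4% ± 3.82 of the sum in the mutant and 80.4% ± 0.719 in Col-0, PRR3 made up 34.9% ± 3.94 and 11.2% ± 0.991, and PRR7 made up 7.72% ± 0.632 and 1.18% ± 0.175 (SD, n = 3 each, mutant first). PRR5 made up 3.58% ± 0.718 of the sum in the mutant and 7.03% ± 0.467 in Col-0.

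**Figure D2:**
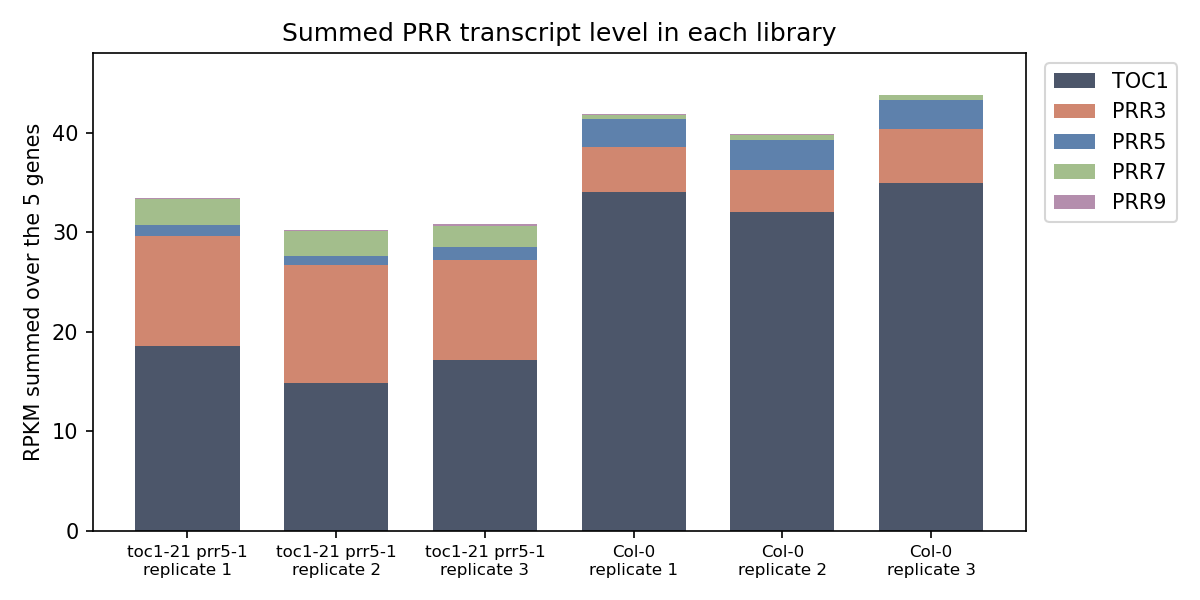
Stacked RPKM of TOC1, PRR3, PRR5, PRR7 and PRR9 in each of the 3 toc1-21 prr5-1 libraries (left) and the 3 Col-0 libraries (right), on a linear axis from 0. The bars reach 30.2 to 33.4 RPKM in the mutant and 39.8 to 43.8 RPKM in Col-0, with a smaller TOC1 block and larger PRR3 and PRR7 blocks in the mutant.

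The order of the levels was the same in the 3 libraries of a genotype. It was TOC1, PRR3, PRR7, PRR5 and PRR9 from high to low in the mutant, and TOC1, PRR3, PRR5, PRR7 and PRR9 in Col-0. Neighbours in this order never overlapped across the libraries of a genotype. The closest were TOC1 and PRR3 in the mutant (lowest TOC1 14.8 RPKM, highest PRR3 11.9 RPKM, ratio of means 1.54) and PRR3 and PRR5 in Col-0 (lowest PRR3 4.22 RPKM, highest PRR5 3.01 RPKM, ratio of means 1.61).

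Of the 4 other pseudo-response regulators, which have no established role in the clock, 2 were tested and 1 of these was called, against 10.6% of all tested genes. APRR2 was lower, at 11.7 ± 0.0783 RPKM in the mutant and 17.2 ± 1.22 RPKM in Col-0 (SD, n = 3 each). Its limma adjusted p was 0.00567 and its log2 fold change -0.52. APRR8 was at 6.71 ± 0.752 RPKM in the mutant and 6.15 ± 1.56 RPKM in Col-0 (SD, n = 3 each), which limma did not call (adjusted p = 0.745). APRR4 and APRR6 are listed at 0 in all 6 libraries.

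No annotated gene overlaps a member by the TAIR10.1 annotation. The nearest gene to TOC1, AT5G61390 on the opposite strand, ends 4 bases away and was at 2.27 ± 0.523 RPKM in the mutant and 2.39 ± 0.384 RPKM in Col-0 (SD, n = 3 each, limma adjusted p = 0.902). AT5G61370, on the other side of TOC1, was at 2.38 ± 0.371 RPKM in the mutant and 2.69 ± 0.559 RPKM in Col-0 (SD, n = 3 each). The gene next to PRR5, AT5G24460, was at 22.1 ± 2.99 RPKM in the mutant and 17.8 ± 0.362 RPKM in Col-0 (SD, n = 3 each), and CDL1, next to PRR7, was at 11.8 ± 1.92 RPKM in the mutant and 11.03 ± 1.60 RPKM in Col-0 (SD, n = 3 each). None of these neighbours, nor AT2G46780 and ZAT beside PRR9, was called. Both neighbours of PRR3, AT5G60090 and PUM18, and the tRNA gene AT5G02815 beside PRR7 are listed at 0, and AT5G03755 beside PRR5 was not analysed here.

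Called genes were not equally frequent around the members. Within 500 kb on either side, 17.1% of 193 tested genes were called near TOC1 (7 higher, 26 lower) and 17.5% of 211 near PRR3 (10 higher, 27 lower), against 10.6% over all tested genes. PRR3 and TOC1 lie 473.5 kb apart, so these windows share genes. The share was 9.70% of 165 near PRR5, 5.24% of 248 near PRR7 and 11.6% of 232 near PRR9. Within 200 kb, where fewer genes were tested, it was 13.9% near TOC1, 16.5% near PRR3, 16.9% near PRR5, 6.12% near PRR7 and 15.5% near PRR9. The part of the chromosomal surroundings in the TOC1 and PRR3 values was not tested.

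**Figure D3:**
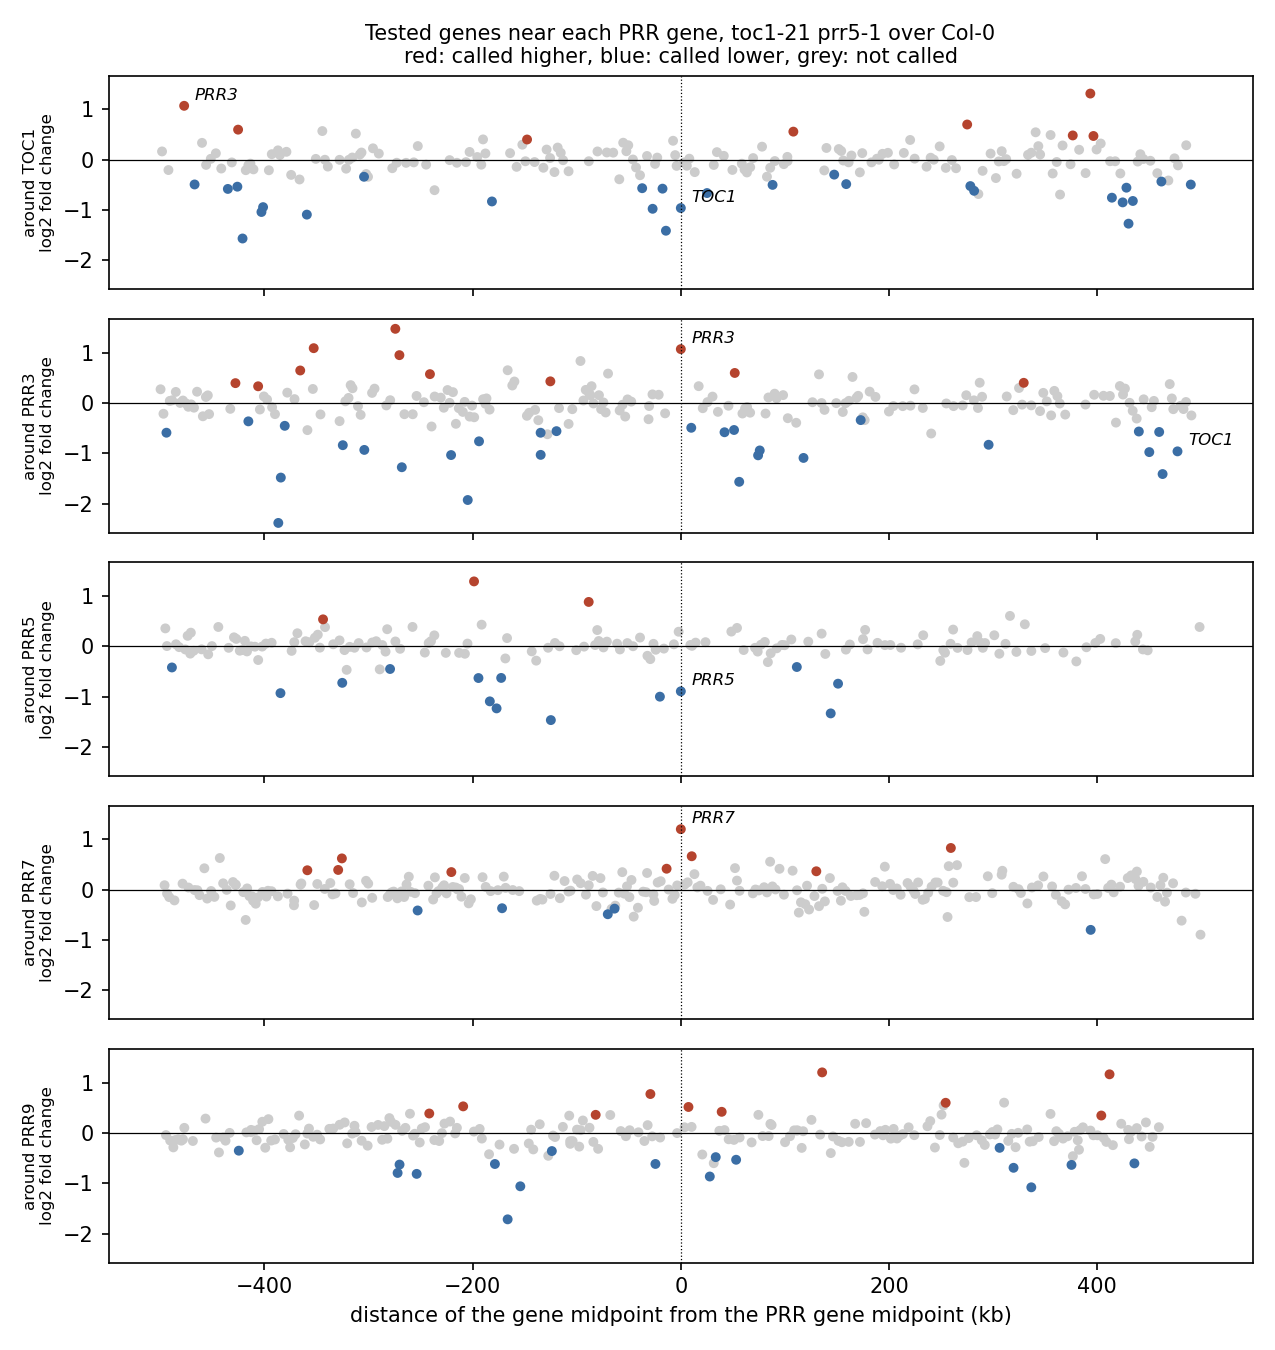
Log2 fold change on RPKM + 1 (y axis, toc1-21 prr5-1 over Col-0) of each tested gene against the distance of its midpoint from that of the PRR gene named at the left (x axis, kb, up to 500 either side). The PRR gene itself is drawn and not counted. Red points were called higher, blue points lower and grey points not called, and 33 of 193 genes around TOC1 and 13 of 248 around PRR7 were called.

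Among other genes of the clock pathway, the called morning factors and PRR targets were higher and the called evening factors lower. In 7 lists of 51 genes, 45 were tested, of which 13 were higher, 7 were lower and 25 did not pass (44.4% called, against 10.6% of all tested genes). Of the 13 higher, 3 (LHY, LNK3 and LNK4) reached 1 RPKM only in the 3 mutant libraries, and so passed the filter through the genotype where they were high. Among the other 42 tested genes 10 were higher and 7 lower. Of those 10, LNK2 and CDF1 reached 1 RPKM in a single Col-0 library (1.45 and 1.48 RPKM). They too passed the filter only through the mutant, so these counts are no support of their own. Of the 14 morning MYB factors and their coactivators, 11 were tested. Of these, 7 were higher, 3 of them LHY, LNK3 and LNK4, and the other 4 did not pass. The median log2 fold change of the 11 was 1.10, against -0.01 over all tested genes. It is the value of LNK4, 1 of those 3 genes, so it is no support of its own. Among the other 8 tested genes 4 were higher, LNK2 among them, and 0 were lower. RVE8, an activator of evening genes, was at 12.4 ± 1.06 RPKM in the mutant and 2.69 ± 0.221 RPKM in Col-0 (SD, n = 3 each). LHY was at 5.74 ± 0.264 RPKM in the mutant and 0.740 ± 0.0788 RPKM in Col-0, and LNK2, a partner of RVE8, at 7.49 ± 0.637 RPKM in the mutant and 0.994 ± 0.402 RPKM in Col-0 (SD, n = 3 each). CCA1 did not reach the filter, at 0.880 ± 0.136 RPKM in the mutant and 0.0971 ± 0.0503 RPKM in Col-0 (SD, n = 3 each), with no overlap of the libraries.

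The called evening factors were lower, as were TOC1 and PRR5. Of 6 tested, 4 were lower and the other 2 did not pass, against 6.65% lower over all tested genes. Their median log2 fold change was -0.57. In the 7 of 13 alternatives in which ELF3 was not called, 3 were lower and 3 did not pass. GI, the gene of this list that did not reach the filter, went the other way. It was at 0.642 ± 0.227 RPKM in the mutant and 0.272 ± 0.0183 RPKM in Col-0 (SD, n = 3 each), with no overlap of the libraries. JMJ30, a histone demethylase gene expressed at dusk, was at 54.5 ± 5.92 RPKM in the mutant and 120.3 ± 18.5 RPKM in Col-0 (SD, n = 3 each). ELF4, of the evening complex, was at 38.2 ± 3.16 RPKM in the mutant and 80.0 ± 8.94 RPKM in Col-0, and BOA, a homolog of its DNA-binding subunit LUX, at 11.3 ± 1.09 RPKM in the mutant and 19.8 ± 1.83 RPKM in Col-0 (SD, n = 3 each). ELF3, another subunit of the evening complex, was the fourth, at 33.4 ± 1.93 RPKM in the mutant and 41.6 ± 2.37 RPKM in Col-0 (SD, n = 3 each, limma adjusted p = 0.047). That call was lost with median-ratio scaling (limma adjusted p = 0.0589) and without any single library other than Col-0 replicate 2 (limma adjusted p between 0.0785 and 0.16).

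Genes for proteins that act on PRR proteins mostly did not pass. Among 4 tested genes of turnover and modification 1 was lower, against 6.65% of all tested genes. It was the F-box receptor FKF1, at 3.89 ± 0.390 RPKM in the mutant and 8.06 ± 1.66 RPKM in Col-0 (SD, n = 3 each, limma adjusted p = 0.00406). ZTL, which targets TOC1 and PRR5 for degradation, was at 27.6 ± 2.14 RPKM in the mutant and 29.2 ± 2.31 RPKM in Col-0 (SD, n = 3 each, limma adjusted p = 0.728). Of 7 corepressor genes, which encode TOPLESS proteins and histone deacetylases recruited by PRR proteins, 0 were called by limma, 0 by limma-voom and 0 had an unadjusted p under 0.05.

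Of 8 tested regulators of PRR transcription or splicing, 1 was higher and 1 was lower, against 3.90% and 6.65% of all tested genes. Counts this small do not set the list apart from those shares. BZIP63, the regulator of PRR7, was at 28.9 ± 3.96 RPKM in the mutant and 17.7 ± 1.48 RPKM in Col-0 (SD, n = 3 each, log2 fold change 0.68, limma adjusted p = 0.00444). HY5, a light-signalling bZIP factor, was at 13.0 ± 1.57 RPKM in the mutant and 22.8 ± 4.99 RPKM in Col-0 (SD, n = 3 each). Its limma adjusted p was 0.0132 with all libraries, 0.0586 without mutant replicate 3 and 0.0605 without Col-0 replicate 1.

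Targets of PRR repression outside the core clock were mostly higher, with 5 of 7 called higher, against 3.90% of all tested genes. The median log2 fold change of the 7 was 1.20. CDF1, called higher, reached 1 RPKM in a single Col-0 library (1.48 RPKM). It passed the filter only through the mutant, so the count of 5 is no support of its own. The list was chosen with earlier results of these data known. CDF2, a repressor of CONSTANS, was at 10.4 ± 0.511 RPKM in the mutant and 1.39 ± 0.396 RPKM in Col-0 (SD, n = 3 each). PIF5 and PIF4, the bHLH transcription factors named in the title of the study, had log2 fold changes of 1.70 and 1.20 (limma adjusted p = 3.46e-05 and 0.000468), and CDF1 and CDF3 completed the 5. With a filter at 5 RPKM, 2 genes of this list were called, because fewer of its genes were tested.

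**Figure D4:**
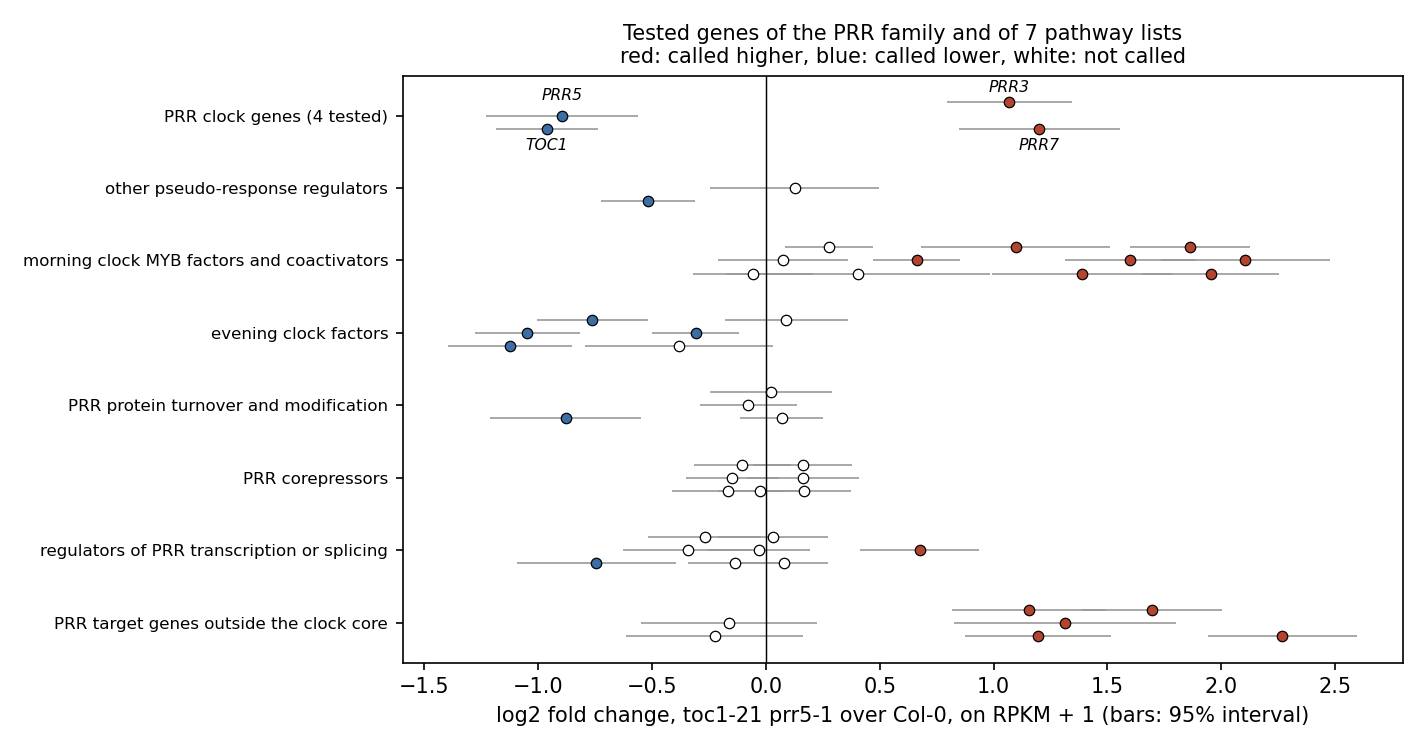
Log2 fold change on RPKM + 1 (x axis, toc1-21 prr5-1 over Col-0) with its 95% interval for the 4 tested PRR genes (top row) and the 45 tested genes of 7 pathway lists (rows below; vertical offsets only separate points). Red points were called higher, blue points lower and white points not called: TOC1 and PRR5 lie with the lower evening factors, PRR3 and PRR7 with the higher morning factors and PRR targets.

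The genes most like each member over the 6 libraries were ranked by Pearson's r of log2(RPKM + 1), which with 2 groups of 3 largely follows the genotype difference and is given as a description. For TOC1 they were ChiC (AT4G19810, a chitinase, r = 0.9984) and AT4G18570 (r = 0.9983). For PRR5 they were POLD4 (a DNA polymerase delta subunit, r = 0.9997) and AT5G58990 (r = 0.9986). For PRR3 they were AT1G73660, described in the files as a protein kinase (r = 0.9980), and AT1G74470, geranylgeranyl reductase of chlorophyll synthesis (r = 0.9973). For PRR7 they were GolS1, a galactinol synthase at 7.78 ± 0.529 RPKM in the mutant and 2.82 ± 0.272 RPKM in Col-0 (SD, n = 3 each, r = 0.9991), and AT3G55170, a ribosomal protein gene (r = 0.9985).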

How the data were processed

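The authors deposited 1 table per library with an RPKM value for each of 33602 genes, per the file headers. The submitters' processing notes name TopHat2, TopHat and edgeR and the TAIR10 build, and a directional library kit is given in the labels' protocols. The labels do not name the counting program, nor how it used strand or reads with several matches. The deposited columns hold no depth, but all 25139 genes above 0 gave whole reads to within 0.001 read once depths and gene lengths were solved for, and the read numbers come from this step. The annotated length fitted for 3736 of them, and for the rest the shortest length that gave whole reads was taken.

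Because RPKM values are not counts, genotypes were compared with limma 3.58.1 (R 4.3.3, mean-variance trend) on log2(RPKM + 1), over the 19710 genes that reached 1 RPKM in 3 or more libraries, with Benjamini-Hochberg adjustment over these genes and a threshold of 0.05. The fit was tested on simulated data. Log2 fold changes are mutant over Col-0. Single values and ratios were compared by exact permutation over the 6 libraries (scipy 1.17.1). Positions and sequences are from RefSeq TAIR10.1, which held 97.7% of the loci, and no coordinates were converted. The members and lists were chosen with earlier results of these data known. Named genes are the 5 members, the other pseudo-response regulators, the nearest annotated genes, CCA1 and LHY, up to 3 called genes per pathway list with the smallest adjusted p, and the 2 most alike genes per tested member. ELF3, GI, LNK3, LNK4, CDF1, CDF3, ZTL, AT2G46670 and the leaf markers RCA and RBCS2B fall outside this rule and were chosen after their values were seen. Alternatives were other pseudocounts, filters and scaling, a replicate block, limma-voom on recovered reads and leaving out each library. Poisson intervals are 95% and cover counting error only.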

Additional observations from a re-analysis of the deposited data

How the results depend on the processing

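The calls and directions of TOC1, PRR3, PRR5 and PRR7 held in each alternative that could be run. The log2 fold change lay between -1.03 and -0.83 for TOC1 (13 alternatives), between 0.72 and 1.22 for PRR3 (13), between -1.41 and -0.37 for PRR5 (12) and between 0.44 and 2.29 for PRR7 (12), with adjusted p of at most 0.0211. A filter at 5 RPKM left PRR5 and PRR7 untested. Leaving out 1 library gave 1340 to 2250 called genes in place of 2080, 447 to 806 higher in place of 769 and 861 to 1457 lower in place of 1311. The PRR5 to TOC1 difference was 0.0667 with 1 RPKM added, in place of -0.40. That amount is close to the mutant PRR5 level and shrinks the PRR5 change more than the TOC1 change. The share called was 13.9% near TOC1, 16.9% near PRR5 and 15.5% near PRR9 within 200 kb, where fewer genes were tested. APRR8, not called in any fit, had a log2 fold change of -0.0385 without Col-0 replicate 2 and 0.2801 without Col-0 replicate 3, the range over left-out libraries. Same-numbered libraries deviated with correlations of -0.03, 0.15 and 0.04. The best match was the same number for mutant replicates 2 and 3, but not for mutant replicate 1. With 3 libraries per genotype these values do not settle whether the numbers pair the samples. The replicate block gave 2114 called genes and changed no PRR call, but ELF3 was not called under it (adjusted p = 0.0781), so that 3 evening factors and 19 genes of the 7 lists were called, in place of 4 and 20. PRR9 is limited by depth, at 0 to 5 reads per library. With no filter on low values its log2 fold change was 0.06 (limma adjusted p = 0.718).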
